A study of Rattus norvegicus with 6 samples.

Results

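Mybl1, Tcfl5, Rfx2, Rfx3, Rfx4, Sox30, Crem, Fhl5, Tbpl1 and Taf7l encode transcription factors and cofactors of the meiotic and spermatid programs, and their mRNA was compared between diabetic and non-diabetic rat testes. The genes were taken by symbol from the deposited table of 35291 genes and assembled loci. Each of the 10 symbols labelled exactly 1 row, and all 10 genes were among the 20338 tested, which had a mean of at least 0.5 FPKM. FPKM are fragments scaled to the length of the transcript and to the fragments sequenced, so levels can be compared between genes. Testes came from adult Sprague-Dawley rats, an outbred strain. In the diabetic (DM) group (n = 3), a high-fat diet was followed by 1 intraperitoneal injection of streptozotocin (STZ), a toxin of pancreatic beta cells, at 35 mg/kg. Testes were taken 8 weeks after it, and only rats with lasting hyperglycaemia counted as diabetic. The non-diabetic group, labelled Normal (n = 3), received citrate buffer, and neither its diet nor an age beyond adult is given in the sources used here. Those sources also do not say whether each library came from a separate rat, so p-values measure the spread between these samples.

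Male germ cells switch large sets of genes on at fixed steps. In pachytene spermatocytes MYBL1 and TCFL5 activate meiotic and piRNA genes, RFX factors and SOX30 prepare and drive the genes of the round spermatid and its flagellum, and CREM with its coactivator FHL5 activates many genes of the late spermatid. TBPL1 and TAF7L are relatives of proteins of the general machinery that starts transcription.

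All 10 genes were expressed well above the typical testis gene, and none of them passed the test for a difference between the groups. With limma across the 20338 genes, 0 of the 10 reached an adjusted p-value below 0.05, where 0.0344% of all genes tested did. An unadjusted p-value below 0.05 was reached by 0 of the 10 and by 7.46% of all genes. A log2 fold change of 1 or more in size, together with an unadjusted p-value below 0.05, was seen for 0 of the 10 and 1.24% of all genes. Diabetic and non-diabetic samples were fully separated for 1 of the 10, Fhl5, and for 13.0% of all genes. Log2 fold changes, taken on log2(FPKM + 0.1) as diabetic over non-diabetic, lay between -0.14 for Taf7l and 0.11 for Mybl1. They were above 0 for 5 genes and below 0 for 5, with a median of 0.014 beside -0.021 over all genes tested. In bulk tissue, fewer cells of a type and less RNA per cell cannot be told apart.

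The 95% intervals of the log2 fold changes had half-widths from 0.119 for Tbpl1 to 0.322 for Mybl1, and all 10 held 0. Their outer bounds were -0.40, for Taf7l, and 0.44, for Mybl1. As percentages of the non-diabetic level, these bounds are a level 24.1% lower for Taf7l and one 35.3% higher for Mybl1. Changes smaller than the intervals were not detectable with 3 samples per group. The standard deviation within groups, on the log2 scale, was below the median of all genes tested (0.176) for 9 of the 10 genes. Mybl1 was the exception at 0.205.

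**Figure D1:**
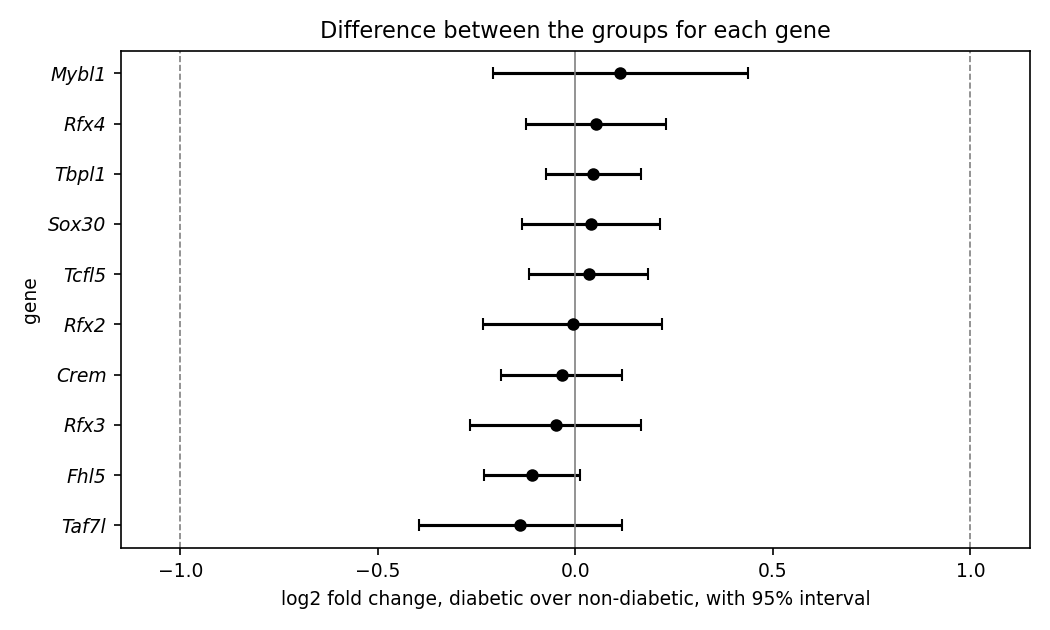
Log2 fold change of each gene, diabetic over non-diabetic (x axis), with its 95% interval from limma, for the 10 genes (y axis), n = 3 per group. All 10 intervals cross the solid line at 0 and lie well inside the dashed lines at a log2 fold change of 1 in either direction.

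Fhl5 was highest at a mean of 307 FPKM over the 6 samples, above 99.2% of the genes tested. Tbpl1 followed at 184 FPKM, Rfx2 at 100.2 FPKM and Tcfl5 at 92.7 FPKM. Below a gap, Rfx4 (36.3 FPKM), Crem (35.4 FPKM) and Sox30 (34.5 FPKM) lay close together. Rfx3 (24.4 FPKM), Mybl1 (23.8 FPKM) and Taf7l (18.7 FPKM) were lowest, and Taf7l was still above 78.2% of the genes tested. The ranges over the 6 samples did not overlap between Fhl5 and Tbpl1, Tbpl1 and Rfx2, Tcfl5 and Rfx4, or Sox30 and Rfx3. They overlapped between the other neighbours in this order. Rfx2 was above Tcfl5 in 5 of 6 samples and Mybl1 was above Taf7l in 6 of 6, although their ranges overlapped. Crem was above Sox30 in only 3 of 6 samples.

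**Figure D2:**
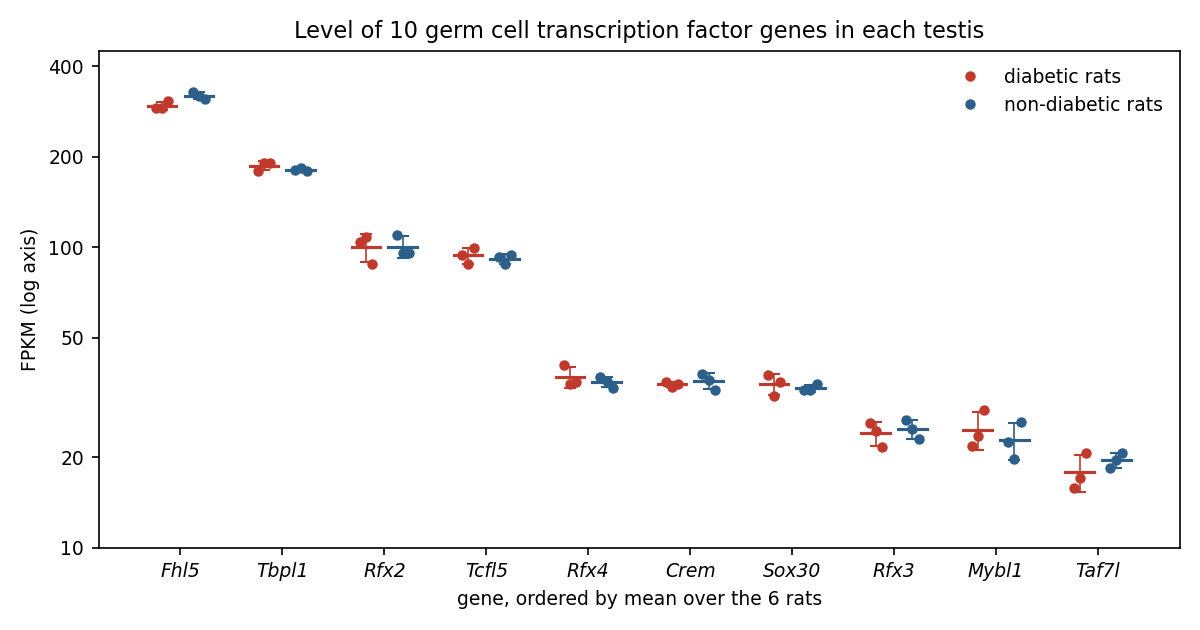
FPKM of the 10 genes in each testis (y axis, log scale; genes on the x axis in order of their mean), with points for samples, bars for group means and whiskers for SD, n = 3 per group. Diabetic and non-diabetic points sit side by side for every gene, from means over the 6 samples of 307 FPKM for Fhl5 down to 18.7 FPKM for Taf7l.

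Mybl1 (ENSRNOG00000021669) encodes A-MYB, which activates genes of pachytene spermatocytes and the precursors of pachytene piRNAs. It had 21.8, 23.6 and 28.7 FPKM in diabetic and 22.5, 19.7 and 26.2 FPKM in non-diabetic testes. The groups overlapped, and the highest value of each belonged to replicate 3. Its log2 fold change was 0.11 (SE 0.14, adjusted p = 0.919 from limma). Tcfl5 (ENSRNOG00000061199), a basic helix-loop-helix factor of spermatocytes and spermatids, was at 94.4, 87.9 and 99.2 FPKM in the diabetic testes. In the non-diabetic testes it was at 92.8, 87.7 and 94.1 FPKM. The middle values of the groups differed little, and the log2 fold change was 0.034 (SE 0.064, adjusted p = 0.947 from limma). The ratio of Tcfl5 to Mybl1 was 3.84 ± 0.448 in the diabetic and 4.06 ± 0.441 in the non-diabetic testes (SD, n = 3 each; exact permutation test, p = 0.7).

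Among the paralogs of Mybl1, Mybl2 was at 0.706 FPKM and Myb at 0.194 FPKM as means of the 6 samples, so Mybl1 was the highest of the family per length. The ratio of Mybl1 to Mybl2 ran from 21.3 to 54.1 over the samples, and this spread covered both groups.

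The promoter sequences of these genes can be read for the sites their own factors bind. RefSeq (GRCr8) gave promoter windows, 250 bases before to 50 after a start, for 9 of the 10 genes, all but Mybl1. The core of the MYB site, CNGTTA on either strand, was found in a window of 7 of these 9 genes (Tcfl5, Rfx2, Rfx3, Rfx4, Sox30, Crem and Taf7l), and 23.6% of all 33469 promoter windows hold it. Rfx4 has 8 windows, some of them overlapping, and Crem has 3, which gives these genes more chances of a match. Counted by window, 10 of the 18 windows of the 9 genes hold the MYB core. The matches of Tcfl5, Rfx2, Rfx3, Sox30 and Taf7l are shown because each of these genes has a single listed start, so a match has 1 distance from it. They begin 62 bases before the start for Tcfl5 (chr3:188131920-188131965, minus strand), 146 bases before it and 23 bases into the transcript for Rfx2 (chr9:1758267-1758312 and chr9:1758099-1758144, minus strand), 74 bases before it for Rfx3 (chr1:235122471-235122516, minus strand), 28 bases before it for Sox30 (chr10:30919730-30919775, plus strand) and 15 bases before it for Taf7l (chrX:101968275-101968320, minus strand), with the match in capitals:
Tcfl5: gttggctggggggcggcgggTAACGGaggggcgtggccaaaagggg
Rfx2, before the start: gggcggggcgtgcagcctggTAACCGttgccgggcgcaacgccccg
Rfx2, after the start: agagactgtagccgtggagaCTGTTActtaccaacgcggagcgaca
Rfx3: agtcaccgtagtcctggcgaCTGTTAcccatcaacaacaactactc
Sox30: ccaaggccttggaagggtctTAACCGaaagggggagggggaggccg
Taf7l: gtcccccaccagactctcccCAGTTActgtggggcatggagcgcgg

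A match describes letters only and does not show binding.

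The RFX factors bind the X-box and are known for switching on ciliary genes, which spermatids use to build the flagellum. Rfx2 (ENSRNOG00000045846), needed for round spermatids to mature in mice, had 104, 108 and 87.9 FPKM in diabetic and 109.9, 95.5 and 95.7 FPKM in non-diabetic testes. Diabetic replicate 3 was lowest, and the other diabetic samples lay within the non-diabetic range. Its group means were 100.1 ± 10.6 and 100.4 ± 8.24 FPKM (SD over 3 samples each), with a log2 fold change of -0.007 (SE 0.096, adjusted p = 0.995 from limma). Rfx3 (ENSRNOG00000014486), a factor of ciliogenesis in many tissues, had 25.97, 24.5 and 21.6 FPKM in diabetic and 26.7, 24.8 and 23.1 FPKM in non-diabetic testes. Diabetic replicate 3 was again the lowest. Its log2 fold change was -0.05 (SE 0.092, adjusted p = 0.947 from limma). Rfx4 (ENSRNOG00000051536), best known from brain and testis, had 40.5, 35 and 35.6 FPKM in diabetic and 36.99, 35.8 and 34.1 FPKM in non-diabetic testes. One diabetic sample stood above the others, and the log2 fold change was 0.052 (SE 0.076, adjusted p = 0.929 from limma).

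The ratio of Rfx2 to Rfx3 stayed between 3.86 and 4.4 in all 6 testes (exact permutation test between groups, p = 0.6). The ratio of Rfx4 to Rfx3 was 1.55 ± 0.111 in the diabetic and 1.44 ± 0.0466 in the non-diabetic testes (SD, n = 3 each; exact permutation test, p = 0.3). Among the other RFX genes, Rfx8 was at 80.4 FPKM, between Rfx2 and Rfx4, whereas Rfx7 (9.10 FPKM), Rfx1 (9.06 FPKM) and Rfx5 (5.22 FPKM) were lower than every RFX gene of the 10. Rfx6, at 0.233 FPKM, was below the filter. The log2 fold change of Rfx8 was 0.06 (95% interval -0.11 to 0.23). The full X-box was searched on both strands as a single pattern with fixed spacing. This pattern was found in a window of 0 of the 9 genes with promoters and in 1.28% of all windows. Sites that differ from the pattern could not be found this way, so the search does not show that the 9 genes lack an X-box. The half-site GTTGCC was searched afterwards on both strands. It was found in 3 of their 18 windows, in Rfx2, Rfx3 and Taf7l, and in 12.2% of all windows. In Rfx2 it overlaps the MYB match before the start.

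Sox30 (ENSRNOG00000006098), an HMG-box factor that activates genes of round spermatids, had 37.5, 31.98 and 35.5 FPKM in diabetic and 33.4, 33.5 and 34.96 FPKM in non-diabetic testes. The non-diabetic values lay inside the diabetic range. Its log2 fold change was 0.04 (SE 0.074, adjusted p = 0.947 from limma). Of its relatives with known testis transcripts, Sox5 was at 69.97 FPKM and Sox6 at 25.9 FPKM as means of the 6 samples. Their log2 fold changes were 0.006 and -0.034. The SOX core ACAAT, on either strand, occurred in a window of 7 of the 9 genes. Counted by window, it was in 8 of their 18 and in 33.7% of all windows.

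Crem (ENSRNOG00000014900) encodes an activator of spermatid genes and, from an internal promoter, the repressor ICER. The table gives 1 total for the gene, so these forms cannot be told apart here. Crem had 35.5, 34.2 and 35.2 FPKM in diabetic and 37.8, 36.2 and 33.5 FPKM in non-diabetic testes. The diabetic samples lay inside the non-diabetic range, and the log2 fold change was -0.035 (SE 0.065, adjusted p = 0.948 from limma). Fhl5 (ENSRNOG00000007680), also called ACT, is the LIM-domain coactivator of CREM. It had 290, 291 and 306 FPKM in diabetic and 328, 319 and 310.1 FPKM in non-diabetic testes. Every diabetic sample was lower than every non-diabetic one, by a small margin between the nearest samples. The means were 296 ± 9.0 and 319 ± 8.88 FPKM (SD over 3 samples each). Diabetic over non-diabetic, this was a log2 fold change of -0.11 (SE 0.052, 95% interval -0.23 to 0.012), with an unadjusted p-value of 0.0705 and an adjusted p-value of 0.712 from limma. The exact permutation test gave p = 0.1, the smallest that 3 samples against 3 allow. With any single sample removed, Fhl5 stayed between -0.135 and -0.09 on this scale. Under median-ratio scaling it was -0.08, with an unadjusted p-value of 0.157 from limma. Over the alternatives that kept all samples, its unadjusted p-value from limma ran from 0.0633 (robust eBayes) to 0.191 (eBayes without trend).

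The ratio of Fhl5 to Crem was 8.45 ± 0.257 in the diabetic and 8.91 ± 0.302 in the non-diabetic testes (SD, n = 3 each; exact permutation test, p = 0.2). Per length, Fhl5 was thus more than 8 times as high as Crem in every testis. The paralogs Fhl1 (4.87 FPKM), Fhl2 (1.34 FPKM) and Fhl3 (0.546 FPKM) were far lower. Groups did not overlap for Fhl2, with a higher diabetic mean (log2 fold change 0.54, 95% interval -0.075 to 1.152), or for Fhl3, with a lower one (-0.67, 95% interval -1.47 to 0.13). Both are low genes, and their adjusted p-values from limma were 0.725 and 0.740. They are the 2 of 14 paralogs tested without overlap, beside 13.0% of all genes tested. The related factors Creb1 and Atf1, at 21.99 and 30.6 FPKM, were somewhat lower than Crem and had log2 fold changes of -0.17 and 0.049.

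CREM binds the cAMP-responsive element (CRE), TGACGTCA. The full element was found in a promoter window of 1 of the 9 genes, Crem itself. Counted by window, it was in 2 of their 18 and in 1.83% of all windows. Among 13 matched spermatid target genes it was found in 1, Tnp1, which encodes a transition protein that replaces histones. These sites are shown because the element lies in windows of the factor's own gene and of a target measured in the same testes. As above, a match does not show binding. The Crem elements begin 56 bases before a start (chr17:58984721-58984768, plus strand) and, at a further start, 35 bases before it and 40 bases into the transcript (chr17:58985435-58985482 and chr17:58985509-58985539, plus strand). Both starts lie downstream of the first window of Crem, which begins at chr17:58933816 and holds no such element. Whether either start belongs to the internal promoter was not tested. The Tnp1 element begins 113 bases before its start (chr9:82044364-82044411, minus strand). The element is in capitals:
Crem, first site: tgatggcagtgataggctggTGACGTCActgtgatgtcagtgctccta
Crem, second site: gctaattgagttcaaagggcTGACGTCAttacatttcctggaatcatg
Crem, last site: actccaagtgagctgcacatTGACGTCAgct
Tnp1: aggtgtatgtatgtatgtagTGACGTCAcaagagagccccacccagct

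Tnp1 had 2219.6, 2155 and 2512 FPKM in diabetic and 1944, 2360.2 and 2976 FPKM in non-diabetic testes, and the groups overlapped widely. Its log2 fold change was -0.061 (95% interval -0.42 to 0.29).

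Tbpl1 (ENSRNOG00000011114), also called TRF2, is a relative of the TATA-binding protein that mice need for spermiogenesis. It was the steadiest of the 10 genes, at 179, 190.1 and 190.4 FPKM in diabetic and 181, 183 and 179 FPKM in non-diabetic testes. The highest sample was 1.07 times the lowest. Diabetic replicate 1 lay within the non-diabetic range and the other diabetic samples above it. The log2 fold change was 0.045 (SE 0.051, adjusted p = 0.912 from limma). When the samples were scaled by their median ratio, the log2 fold change of Tbpl1 was 0.075 and its groups no longer overlapped. The same held for 2731 of all 20338 genes tested under that scaling. Tbp, which encodes the TATA-binding protein itself, was at 73.8 FPKM, and Tbpl2 was listed at 0 in all 6 samples. The ratio of Tbpl1 to Tbp ran from 2.27 to 2.78 and was 2.52 ± 0.224 and 2.48 ± 0.218 in the diabetic and non-diabetic testes (SD, n = 3 each; exact permutation test, p = 0.8).

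Taf7l (ENSRNOG00000026315) is an X-linked gene whose product stands in for TAF7, a subunit of the TFIID complex, in germ cells. It had 15.8, 17.1 and 20.7 FPKM in diabetic and 18.5, 19.6 and 20.7 FPKM in non-diabetic testes. A pair of diabetic samples lay below all non-diabetic ones, and diabetic replicate 3 was level with the highest of them. The log2 fold change was -0.14 (SE 0.11, 95% interval -0.40 to 0.12, adjusted p = 0.852 from limma). Without diabetic replicate 3 it was -0.25, with an unadjusted p-value of 0.0251 and an adjusted p-value of 0.586 from limma. In that fit, 1572 of all 20338 genes tested had an unadjusted p-value below 0.05. With any other single sample left out, the log2 fold change of Taf7l ran from -0.181 to -0.057. The unadjusted p-values from limma in those fits ran from 0.201 to 0.615. Its autosomal relative Taf7 was at 6.13 FPKM. The ratio of Taf7l to Taf7 was 2.91 ± 0.346 in the diabetic and 3.35 ± 0.561 in the non-diabetic testes (SD, n = 3 each; exact permutation test, p = 0.3). Over the 9 ratios compared among these genes and their relatives, the Benjamini-Hochberg adjusted p-value of the permutation tests was 0.9 for each.

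The 10 genes did not deviate from their means together. Mybl1 and Taf7l were both highest in replicate 3 of each group, by 0.28 and 0.15 on the log2 scale for diabetic replicate 3, where Rfx2 and Rfx3 were lowest, at -0.18 and -0.17. The median deviation over the 10 genes was between -0.05 and 0.02 in every sample, so no library was high or low for the group as a whole. The summed level of the 10 genes was 843 to 861 FPKM in the diabetic and 851 to 887 FPKM in the non-diabetic testes (exact permutation test, p = 0.3).

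**Figure D3:**
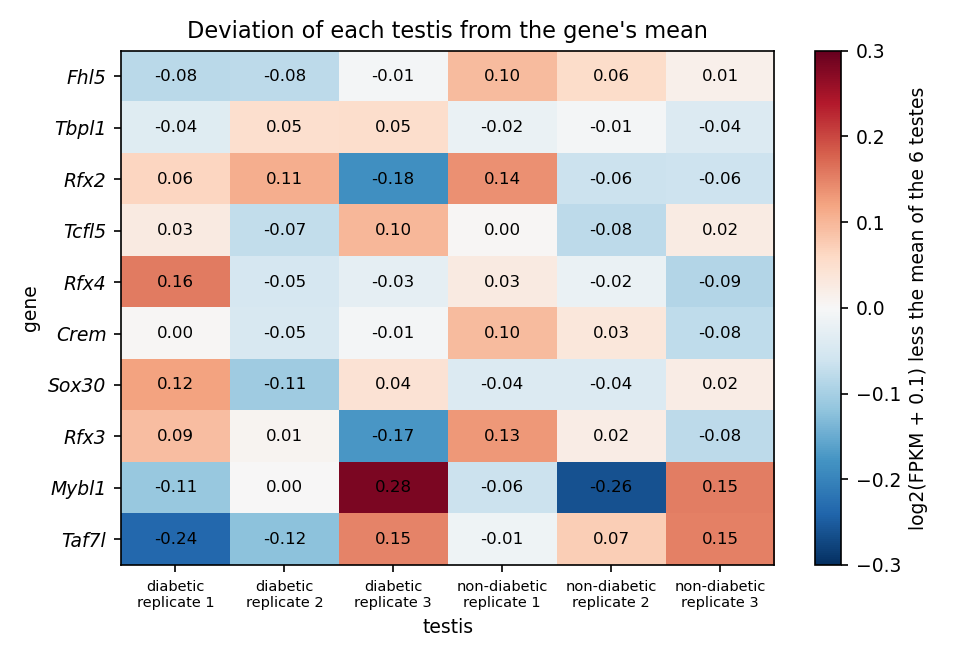
Deviation of each testis (columns) from the mean of the 6 for each gene (rows), in log2(FPKM + 0.1), red for above and blue for below. The deviations run from -0.26 to 0.28, both for Mybl1, and no column has a single colour.

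Genes that work with or downstream of these factors were counted by list. Of 14 paralogs tested, 0 reached an unadjusted p-value below 0.05, and the highest of them, Rfx8, is described above. Among 12 tested genes of the general machinery and cofactors, 0 did so, and their log2 fold changes lay between -0.087 and 0.07. Gtf2a1l, which encodes a germ cell form of TFIIA that partners TBP-like factors, was the highest of them at 169 FPKM (log2 fold change 0.035, 95% interval -0.086 to 0.16). Groups did not overlap for 1 of the 12 machinery genes, Gtf2a2, with a lower diabetic mean, beside 13.0% of all genes tested. Among 17 other regulators of meiosis and spermatids, 0 reached an unadjusted p-value below 0.05 from limma. Their groups did not overlap for 6, beside 13.0% of all genes tested. These were Spz1, Hsf5, Kctd19, Sohlh2 and Foxj2, with higher diabetic means, and Prdm9, with a lower one. Summed over the 18 genes of this list with a row, levels were 770.5 to 784 FPKM in diabetic and 745 to 753 FPKM in non-diabetic testes. These sums did not overlap (exact permutation test, p = 0.1). Spz1 alone makes up a large part of each sum. Of the 17 genes tested, 11 had a log2 fold change above 0 and 6 below. Spz1, a leucine zipper factor of the testis, was the highest at 366, 368 and 369.8 FPKM in the diabetic and 347, 359.8 and 359 FPKM in the non-diabetic testes, or 0.05 higher on the log2 scale (adjusted p = 0.886 from limma).

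Target genes were counted in the same way. Of 15 meiotic genes described as MYBL1 or TCFL5 targets, 2 had an unadjusted p-value below 0.05, both higher in the diabetic testes, and 0 an adjusted one, where 7.46% and 0.0344% of all genes did. They were Ccna1, the germ cell cyclin A, and Morc2b, a meiotic chromatin gene. Ccna1 had 84.6, 82.2 and 78.4 FPKM in diabetic and 72.7, 76.2 and 68.97 FPKM in non-diabetic testes (log2 fold change 0.17, adjusted p = 0.613 from limma). Morc2b had 64.7, 51.5 and 57.0 FPKM in diabetic and 48.2, 46.8 and 42.7 FPKM in non-diabetic testes (log2 fold change 0.33, adjusted p = 0.506 from limma). The groups did not overlap for these 2 of the 15 genes, beside 13.0% of all genes tested. The median of the 15 was 0.028, and Crisp2, the highest, had a mean of 1882 FPKM and a log2 fold change of 0.028. Of 15 ciliary and axonemal genes of the kind that RFX factors control, 0 reached an unadjusted p-value below 0.05 and 0 had groups that did not overlap. Their median was -0.007, and Tekt1, a tektin of the axoneme and the highest of them at 281 FPKM, had a log2 fold change of 0.01 (95% interval -0.15 to 0.17).

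Of 15 spermatid genes that depend on CREM, TBPL1 or SOX30 in mice, 0 reached an unadjusted p-value below 0.05 from limma. Their log2 fold changes lay between -0.12 and 0.12, with a median of -0.009. Groups did not overlap for 1 of the 15, Acr, with a higher diabetic mean, beside 13.0% of all genes tested. Prm1, a protamine gene and the highest at a mean of 3682 FPKM, had 3561, 4049 and 3869 FPKM in diabetic and 3227, 3316 and 4072 FPKM in non-diabetic testes, with a log2 fold change of 0.12 (95% interval -0.12 to 0.36).

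**Figure D4:**
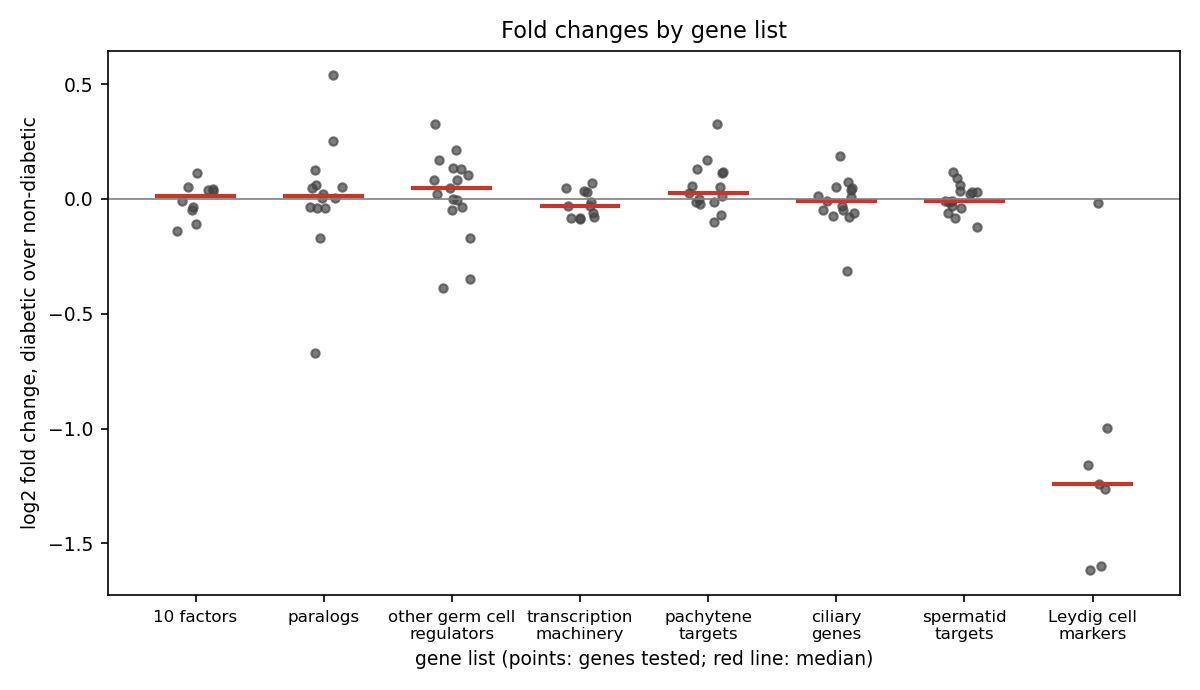
Log2 fold change, diabetic over non-diabetic (y axis), of every gene tested in each list (x axis), with points for genes and red lines for medians. The medians of the first 7 lists lie between -0.031 and 0.05, and that of the Leydig cell markers, given for context, at -1.24.

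The makeup of the samples was checked with marker genes. Many of the meiotic and spermatid markers also stand in the target lists above. These are Prm1, Prm2, Tnp1, Tnp2, Odf1, Smcp, Gapdhs, Acr, Acrv1, Ldhc, Piwil1, Ccna1 and Spag6l. For these genes, marker and target lists read the same values and are not separate evidence. Summed levels were highest for the elongating spermatid and pachytene lists, and they overlapped between the groups for the early meiotic, pachytene, round spermatid and elongating spermatid lists. Several markers of spermatogonia and early meiosis were low, and Nanos3 and Sall4 were below the filter. The spermatogonia list, at 66.8 to 75.2 FPKM in the diabetic and 60.3 to 65.2 FPKM in the non-diabetic testes, did not overlap (exact permutation test, p = 0.1). Of its 6 genes tested, Uchl1 was higher and Kit lower at an unadjusted p-value below 0.05 from limma. Of all genes tested, 7.46% had such a value, 502 higher and 1015 lower in the diabetic testes, and 0.0344% had an adjusted one. These shares apply beside the counts for the other marker lists too. The Leydig cell list, 7 of 8 symbols in the table, was at 31.2 to 60.1 FPKM in the diabetic and 87.3 to 121 FPKM in the non-diabetic testes (exact permutation test, p = 0.1). Of its 7 genes, 6 were lower at an unadjusted p-value below 0.05 and 1, Cyp17a1, at an adjusted one from limma (adjusted p = 0.0415, log2 fold change -1.60). With 1 sample left out, the adjusted p-value of Cyp17a1 from limma was 0.129, 0.137 and 0.111 without diabetic replicates 1, 2 and 3 and 0.151 without non-diabetic replicate 3, and its log2 fold change stayed between -1.71 and -1.426. The Sertoli cell list overlapped, at 67.7 to 71.01 FPKM and 64.9 to 74.2 FPKM, with Amh below the filter. Of its 7 genes tested, 1 was lower at an unadjusted p-value below 0.05, Inha, which encodes the inhibin alpha subunit (log2 fold change -0.34, unadjusted p = 0.0293, adjusted p = 0.627 from limma). Macrophage markers were at 27.02 to 32.4 FPKM and 32.4 to 34.7 FPKM, with 3 of 6 lower at an unadjusted p-value below 0.05. The peritubular (72.8 to 79.3 and 74.7 to 94.3 FPKM), endothelial (5.39 to 6.05 and 5.83 to 7.09 FPKM) and blood cell lists (33.9 to 73.9 and 40.2 to 67.9 FPKM) overlapped, diabetic before non-diabetic. The part of these markers in the values of the 10 genes was not tested. Relative depth, read from the ratios of low values, was 0.966 to 1.09 in the diabetic and 0.893 to 1.02 in the non-diabetic libraries.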

How the data were processed

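Testis RNA in 3 diabetic and 3 non-diabetic samples was sequenced in paired-end mode. The labels' protocol names both poly(A)+ and poly(A)- RNA and does not say which was sequenced. The authors compared reads with rRNA by BWA, aligned the rest with STAR and used StringTie for assembly. The genome build is not given in the sources used here. The deposited values are FPKM per gene, so the number of reads is unknown, and the DESeq2 screen of the methods was not repeated.

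FPKM were transformed as log2(FPKM + 0.1), and those averaging 0.5 FPKM or more were fitted with limma 3.58.1 in R 4.3.3 (eBayes with trend, two-sided, Benjamini-Hochberg over all genes tested). Summed levels and ratios were compared by two-sided exact permutation tests (scipy 1.17.1, Python 3.11.15). Of these steps, only the limma fit was tested on simulated data. The genes and lists were chosen with earlier results of these data known. The genes named are the 10, list genes with unadjusted p-values below 0.05, and the highest of each list; other paralogs, Tnp1 and the genes named for groups that did not overlap were chosen after their values were seen. No protein sequences were compared. Promoters are from RefSeq (GRCr8), matched by symbol, and the motifs were chosen after the values were seen. The RFX half-site was added because the X-box pattern searched gave no match in these genes.

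Both groups use the same replicate numbers, but the main fit was planned without a block. Deviations of same-numbered samples correlated at 0.106, 0.015 and 0.098. Those of differently numbered samples correlated at -0.126 to 0.032. Alternatives were other pseudocounts, filters, scalings, eBayes settings and gene sets, a replicate block and leaving out each sample.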

Additional observations from a re-analysis of the deposited data

How the results depend on the processing

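Under 11 alternatives that kept all samples, the 10 log2 fold changes gave 110 values. They lay between -0.142 and 0.143, with adjusted p-values of at least 0.631. Of these alternatives, 7 leave the fold changes as they are and bear on p-values alone. Under the other 4 (median-ratio scaling, TPM and both pseudocounts), 39 of 40 values kept their sign. The exception was Rfx2, at 0.023 under median-ratio scaling. There, 2 of the 10 genes, Fhl5 and Tbpl1, had separated groups, beside 2731 of all 20338 genes tested. With each sample left out, 52 of 60 values kept their sign. The ranges that crossed 0 were -0.006 to 0.080 for Tcfl5, -0.064 to 0.083 for Rfx2, -0.108 to 0.025 for Rfx3, -0.013 to 0.091 for Rfx4, -0.011 to 0.103 for Sox30 and -0.082 to 0.005 for Crem. The median of the 10 ran from -0.027 (without diabetic replicate 1) to 0.037. The number with an unadjusted p-value below 0.05 from limma ran from 0 to 1. This was Taf7l, without diabetic replicate 3, where 1572 of all 20338 genes tested had such a value. The number without overlap ran from 1 to 3. The 3 were Tcfl5, Sox30 and Fhl5, without diabetic replicate 2, where 4227 of all 20338 genes tested were without overlap. In each of these limma fits, adjusted p-values of all 10 genes stayed above 0.05. The log2 ratio differences that crossed 0 ran from -0.155 to 0.004 for Rfx2/Rfx4, -0.049 to 0.089 for Tbpl1/Tbp, -0.574 to 0.098 for Mybl1/Mybl2 and -0.092 to 0.366 for Crem/Creb1.

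Among the other lists, the medians with 1 sample left out ran from 0.039 to 0.09 for other regulators, -0.056 to 0.004 for the machinery, 0.005 to 0.067 for meiotic targets, -0.016 to 0.034 for ciliary targets, -0.007 to 0.05 for spermatid targets and -0.003 to 0.035 for paralogs. Other regulators had 0.082 with a filter at 1 FPKM and 0.08 under median-ratio scaling, where the machinery had -0.002.

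Over all genes, 7 had an adjusted p-value below 0.05. The number was 12 with eBayes without trend, 3 without a filter, 36 among protein-coding genes only, 15 with same symbols summed, 4 with the replicate block and 0 to 11 with each sample left out (0 by limma without non-diabetic replicate 3, where 1504 had an unadjusted p-value below 0.05). Cyp17a1 lost its call with the replicate block (adjusted p = 0.186 from limma), without trend (0.0909) and without a filter (0.0788). The replicate block brought 0 of the 10 genes below 0.05, unadjusted or adjusted. The 253 genes past the fold change criterion became 621 without a filter, 85 among protein-coding genes only and 91 with a pseudocount of 1. The 2640 genes without overlap became 1723 among protein-coding genes only and 4227 to 5237 with each sample left out, where fewer samples overlap less often. Other causes were not tested. Forms of one gene, such as those of Crem, are beyond what gene totals can show.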

Other observations

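Marker genes of spermatogonia, the cells that precede the stages served by the 10 factors, showed values in both directions. Uchl1 and Kit were chosen after their values were seen. In bulk tissue, their values cannot be assigned to spermatogonia alone. Uchl1, which marks spermatogonia, had 53.0, 43.5 and 46.1 FPKM in diabetic and 40.9, 35.6 and 35.6 FPKM in non-diabetic testes. Its log2 fold change was 0.34 (adjusted p = 0.485 from limma), and its groups did not overlap. Kit, the receptor of differentiating spermatogonia, had 3.78, 3.61 and 3.18 FPKM in diabetic and 4.45, 4.33 and 4.24 FPKM in non-diabetic testes, with -0.30 on the log2 scale (adjusted p = 0.635 from limma). Uchl1 makes up most of the summed level of the spermatogonia list, and the median log2 fold change of the 6 genes tested in that list was -0.12.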
